A study of Mus musculus with 20 samples.

Results

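The genes described here are 10 members of the MHC class I and antigen processing pathway, measured by RNA-seq in mouse colonic organoids (colonoids) with and without TNF receptor 2 (TNFR2, the product of Tnfrsf1b). They were chosen by gene symbol for their known roles, H2-K1, H2-D1, H2-T23, B2m, Tap1, Tap2, Tapbp, Psmb8, Psmb9 and Nlrc5, and are 10 of the 35240 gene symbols in the deposited table. All 10 members passed the filter on low values, a mean of at least 1 over the libraries. The study compared colonoids from wild-type (WT, C57BL/6) mice with colonoids from Tnfr2-/- mice, which lack the receptor in the whole body (strain B6.129S2-Tnfrsf1b tm1Mwm/J). Colonoids were collected at days 1, 2, 3, 5 and 7 post-passage from 2 mice of each genotype, which gave 20 libraries in 10 groups of 2. The groups are the WT colonoids at each of the 5 days and the Tnfr2-/- colonoids at each of the 5 days, and the labels name no other treatment. Days 1 to 3 are called early here (6 libraries per genotype) and days 5 and 7 late (4 libraries per genotype). With 2 mice per genotype, a difference between genotypes cannot be told apart from a difference between those mice, and libraries of 1 mouse at several days are not independent animals.

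MHC class I molecules carry short peptides from inside the cell to its surface, where CD8 T cells read them. The proteasome cuts the peptides, with immunoproteasome subunits such as Psmb8 and Psmb9 changing where it cuts. The Tap1-Tap2 transporter moves the peptides into the endoplasmic reticulum, Tapbp (tapasin) bridges the transporter to the empty heavy chain, and B2m (beta-2-microglobulin) is the light chain that every classical heavy chain needs. Interferons induce most of these genes, Nlrc5 is the transactivator that acts on class I promoters, and TNF acts on some of the same promoters through NF-kappaB. In the gut epithelium this pathway is used for surveillance of infected or transformed cells.

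On the GRCm38 assembly, 8 of the 10 members lie on chromosome 17, in or beside the H2 complex. The classical heavy chain genes are H2-K1 (ENSMUSG00000061232, chr17:33996017-34000347, minus strand) and H2-D1 (ENSMUSG00000073411, chr17:35262730-35267499, plus strand). The nonclassical heavy chain H2-T23, which encodes Qa-1 and presents leader peptides to NK cell receptors, lies at chr17:36029773-36032855 on the minus strand (ENSMUSG00000067212). The processing genes Psmb9 (ENSMUSG00000096727, chr17:34181987-34187764, minus strand), Tap1 (ENSMUSG00000037321, chr17:34187553-34197225, plus strand), Psmb8 (ENSMUSG00000024338, chr17:34197721-34201454, plus strand) and Tap2 (ENSMUSG00000024339, chr17:34203527-34216321, plus strand) stand side by side. Tapbp (ENSMUSG00000024308, plus strand) spans chr17:33915899-33929292. The remaining genes are B2m on chromosome 2 (ENSMUSG00000060802, chr2:122147686-122153083, plus strand) and Nlrc5 on chromosome 8 (ENSMUSG00000074151, chr8:94434356-94527272, plus strand).

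The promoters of the 3 heavy chain genes and of B2m are shown because these 4 genes encode the class I molecules themselves and were each higher at late days in at least 1 genotype, as described below. RefSeq promoter windows of the GRCm38.p6 assembly, which hold 250 bases before and 50 bases after the start site, were found for 8 of the 10 members, all except Tap2 and Nlrc5. Each window was searched on both strands for an NF-kappaB-type motif (GGNNNTTCC), an IRF-type motif (GAANNGAAA or GAAANNGAA), a GAS motif (TTCNNNGAA), a CRE-like motif (TGACG) and a Y-box (CCAAT). The stretches below run from 12 bases before the first match of a block to 12 bases after the last, 5' to 3' on the strand of the gene, with the matches in capitals (a match on the other strand reads as its reverse complement). The H2-K1 stretch is chr17:34000323-34000470 (minus strand), the H2-D1 stretch chr17:35262911-35263057 (plus strand), the H2-T23 stretch chr17:36032737-36032836 (minus strand) and the B2m stretch chr2:122147536-122147650 (plus strand).
H2-K1: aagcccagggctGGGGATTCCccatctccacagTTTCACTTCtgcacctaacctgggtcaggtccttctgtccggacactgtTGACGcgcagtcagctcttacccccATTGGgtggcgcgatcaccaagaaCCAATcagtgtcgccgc
H2-D1: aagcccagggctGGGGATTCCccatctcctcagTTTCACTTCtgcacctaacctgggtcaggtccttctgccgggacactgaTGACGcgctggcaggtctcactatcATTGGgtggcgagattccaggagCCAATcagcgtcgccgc
H2-T23: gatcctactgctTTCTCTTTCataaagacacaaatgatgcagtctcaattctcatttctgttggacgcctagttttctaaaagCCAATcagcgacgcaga
B2m: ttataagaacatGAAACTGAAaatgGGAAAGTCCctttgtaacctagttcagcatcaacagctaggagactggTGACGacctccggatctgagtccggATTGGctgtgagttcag

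H2-K1 and H2-D1 held the same order of matches, an NF-kappaB-type motif, an IRF-type motif, a CRE-like motif and a pair of Y-boxes. In both genes the NF-kappaB-type match began 21 bases before the IRF-type match, and the IRF-type match began 49 bases before the CRE-like match. Over the 75 bases from the first base of the NF-kappaB-type match to the last base of the CRE-like match, 71 bases (94.7%) were identical between the genes. B2m held the same kinds of match in another order, with the IRF-type match at -139 and the NF-kappaB-type match at -126, counted from the start site as 0. H2-T23 held an IRF-type match at -123 and a Y-box at -52, and the NF-kappaB-type, GAS and CRE-like letters were not in its window. Of the 8 members with a window, 3 held an NF-kappaB-type match (H2-K1, H2-D1 and B2m), 4 an IRF-type match (the same genes and H2-T23), 5 a CRE-like match, 7 a Y-box and 1 (Psmb8, at -97) a GAS match. Among all 32851 promoter windows of the same length, 18.477% held the NF-kappaB-type letters, 14.846% the IRF-type letters, 8.298% the GAS letters, 20.812% the CRE-like letters and 37.408% the Y-box letters. The combination of NF-kappaB-type, IRF-type, CRE-like and Y-box matches found in H2-K1, H2-D1 and B2m occurred in 73 windows (0.222%). This combination is the set of kinds of match that these 3 genes hold, so its share is a description and not a test. Tap1 and Psmb9 are transcribed away from each other from start sites 226 bases apart, and their windows overlap by 275 bases, so a match in the overlap belongs to both. A match is a description of letters, not a site at which a factor was measured. For Tapbp the RefSeq start site lies 3579 bases inside the gene model used for the coordinates above, and for Psmb8, Psmb9, H2-D1 and H2-T23 it lies 474, 434, 364 and 154 bases inside.

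**Figure D1:**
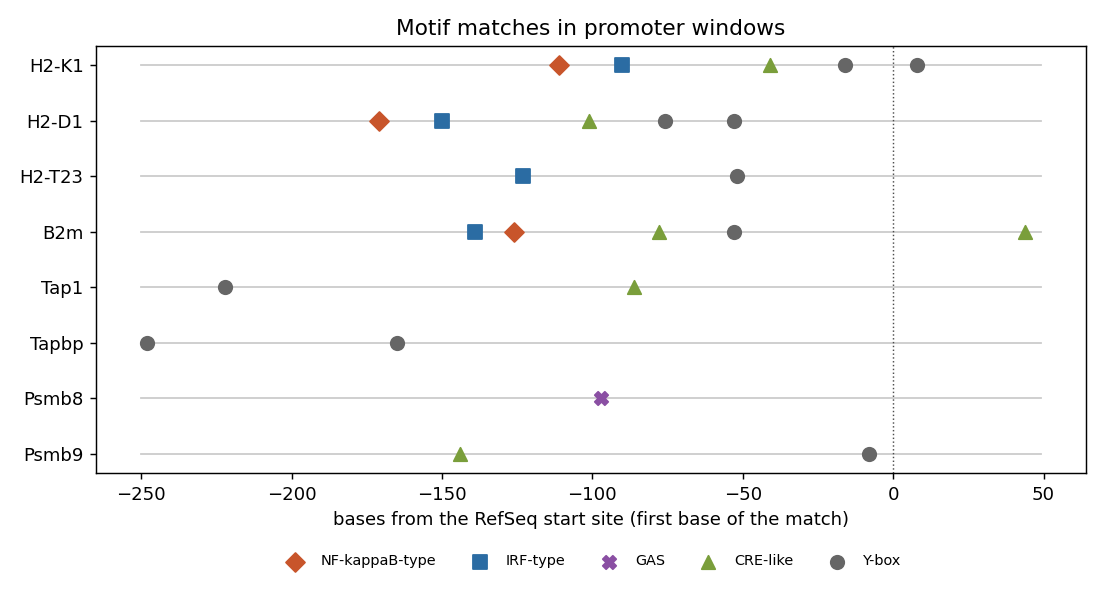
Motif matches in the RefSeq promoter windows of the 8 members that have one, by distance from the start site in bases (x axis), 1 line per gene. H2-K1 and H2-D1 show the same spacing, with 21 bases from the NF-kappaB-type to the IRF-type match, and Psmb8 shows a single GAS match.

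The values appear to be TPM, a relative abundance per transcript length, divided by 1 size factor for each library, although the size factors are not given in the sources used here. They are summed here over the transcripts of each gene symbol. A TPM value is per length, so levels can be compared between genes. Library sums ran from 899764 to 1110233, and 13007 to 13469 genes in a library reached a value of 1. Tnfrsf1b, the deleted gene, ran from 11.1 to 21.9 (median 14.3) in WT libraries and from 2.71 to 11.5 (median 4.85) in Tnfr2-/- libraries, and 1 late Tnfr2-/- library overlapped the WT range. The labelled organoid identity was checked with markers: the 7 epithelial markers, Epcam and keratins among them, were all measured, with sums from 11673 to 19760. The cultures also held fibroblasts: all 10 fibroblast markers passed the filter, with summed values from 1242 to 4296 in WT and from 3148 to 8594 in Tnfr2-/- libraries. Of 10 immune cell markers 2 (Cd68 and Csf1r) passed the filter, Cd3g was listed at 0 in all libraries, Ptprc (CD45) did not exceed 0.753, and the summed value was 8.93 to 21.03 in WT and 18.3 to 48.4 in Tnfr2-/- libraries. Of 5 endothelial markers 1 passed the filter, Emcn was listed at 0 in all libraries, and the sum ran from 0.288 to 4.24 in WT and from 0.947 to 3.42 in Tnfr2-/- libraries. In these bulk samples, fewer cells of a type and less RNA per cell cannot be told apart.

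The light chain and the classical heavy chains were by far the most abundant members. Over the 20 libraries the mean value was 962 ± 399 (SD) for B2m, 604 ± 132 for H2-K1 and 439 ± 106 for H2-D1. Tapbp followed at 173 ± 60.6 and H2-T23 at 101 ± 40.7. The transporter and immunoproteasome genes were lower, with Tap2 at 21.01 ± 8.48, Tap1 at 18.8 ± 6.95, Psmb8 at 15.9 ± 6.63 and Psmb9 at 8.14 ± 5.74. Nlrc5 was the lowest at 3.39 ± 2.35. The order held within libraries for the abundant genes: H2-K1 exceeded H2-D1, H2-D1 exceeded Tapbp and H2-T23 exceeded Tap2 in 20 of 20 libraries, and B2m exceeded H2-K1 in 17. Tap2 exceeded Tap1 in 13 of 20 libraries and Tap1 exceeded Psmb8 in 12, so these neighbours did not separate. The ratio of H2-K1 to H2-D1 was 1.22 to 1.81 in WT and 1.18 to 1.70 in Tnfr2-/- libraries.

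The share of a gene's value held by its principal transcripts differed widely between members. Transcripts that the deposited table marks as principal held 82.3% of the summed H2-K1 value, 91.6% of H2-D1, 94.7% of H2-T23 and the whole value of B2m, which has 1 transcript. They held 56.8% of Tap1, 52.1% of Tapbp, 44.8% of Psmb8, 35.1% of Psmb9, 19.2% of Nlrc5 and 4.90% of Tap2. The authors' mean estimated count (the deposited mean of the log count, as a geometric mean) was 1403 for the principal H2-K1 transcript, 1524 for H2-D1, 230.0 for H2-T23 and 1201 for B2m. It was 19.3 for the principal Psmb8 transcript, 5.50 for Psmb9, 3.71 for Tap2 and 2.73 for Nlrc5, which gives these transcripts far less counting precision. The tested values are sums over transcripts. The Tap2 transcript with the largest share (41.1%) had a mean count of 40.9, beside 56.6 for the principal Tap1 transcript. The gene-level Psmb9 value drew 59.7% on 1 other transcript that was above 0 in 15 of 20 libraries. Heavy chain genes also share sequence with other genes, of class I or not. Some stretches of 75 bases (the read length) in the main transcript also occur in a transcript of another gene. Their share was 1.55% for H2-K1, 6.9% for H2-D1 and 13.1% for H2-T23. For stretches of 31 bases these shares were 23.35%, 27.5% and 48.7%. Of the other genes with a shared 75-base stretch, 7 of 13 for H2-K1, 8 of 17 for H2-D1 and 8 of 25 for H2-T23 were listed class I heavy chains. The main transcripts of B2m, Psmb8, Psmb9 and Nlrc5 shared no stretch of either length, and those of Tap1 and Tap2 shared none of 75 bases and 44 each of 31 bases. H2-K1 shared 24 stretches of 75 bases with H2-D1.

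**Figure D2:**
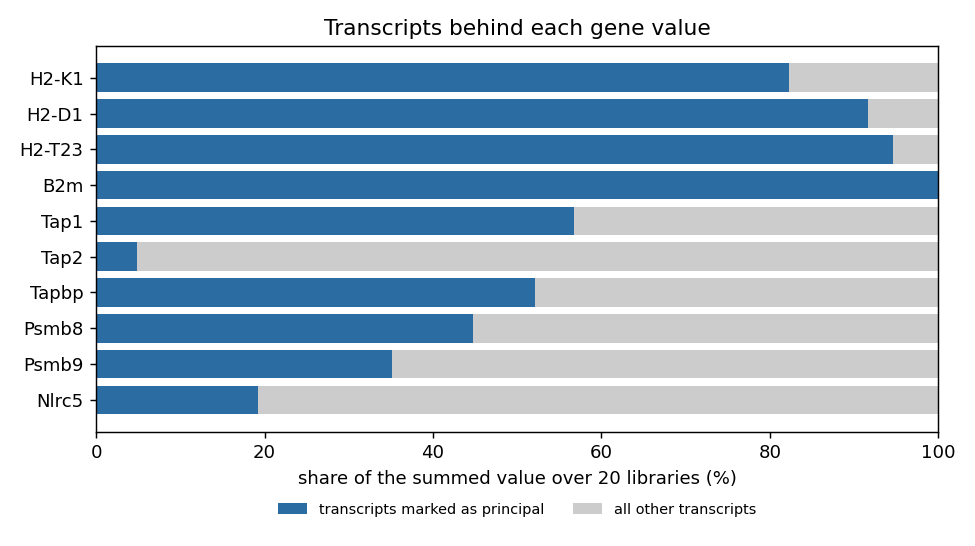
Share of each member's summed value over 20 libraries (x axis, %) held by transcripts marked as principal (blue) and by all others (grey). The share falls from the whole value for B2m to 4.90% for Tap2.

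**Figure D3:**
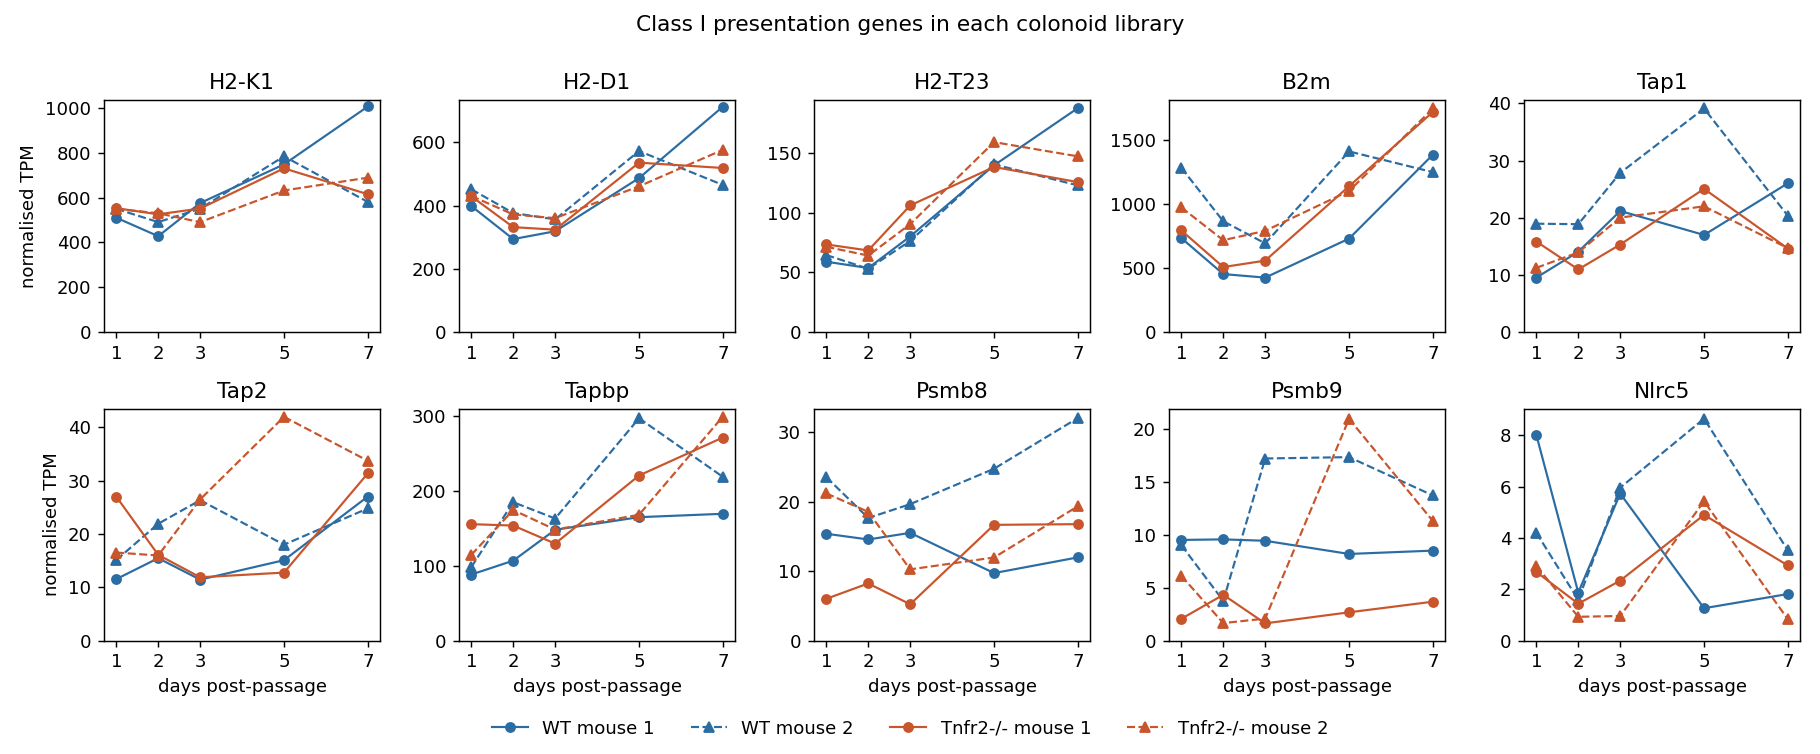
Value of each member (y axis, TPM divided by the size factor, each panel on its own scale) by day post-passage (x axis) in each of the 20 libraries, WT and Tnfr2-/-. H2-T23 was between 52.9 and 106 at days 1 to 3 and between 123 and 188 at days 5 and 7.

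The first comparison asked how the pathway changed as the colonoids matured, late days against early days within a genotype. H2-D1, H2-T23, B2m and Tapbp were called higher late in both genotypes and H2-K1 in WT, with the largest called change for H2-T23 in WT and for B2m in Tnfr2-/-. Tap1, Tap2, Psmb8, Psmb9 and Nlrc5 did not pass the test in either genotype. In WT 5 of 10 members were higher late and 0 were lower (limma, Benjamini-Hochberg adjusted p under 0.05, 5 members at an unadjusted p under 0.05), against 11.6% of all 13539 genes tested that were higher late. In Tnfr2-/- 4 of 10 were higher and 0 were lower (6 at an unadjusted p under 0.05), against 10.4% of all genes that were called higher. An unadjusted p under 0.05, in either direction, was found for 4515 of all genes in WT and 4409 in Tnfr2-/-. The median log2 difference over the members was 0.51 in WT and 0.59 in Tnfr2-/-, beside 0.018 and 0.022 over all genes. Differences are given on the log2(value + 1) scale, which understates the change of low genes such as Nlrc5.

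Late values are given in the order day 5 mouse 1, day 5 mouse 2, day 7 mouse 1 and day 7 mouse 2. H2-T23 had the widest gap between early and late libraries relative to its error. In WT it was 52.9 at the lowest, 61.6 at the median and 80.0 at the highest early library, and 139.5, 140.4, 188 and 123 in the late libraries. In Tnfr2-/- it was 63.9, 72.3 and 106 early, and 138, 159, 125 and 147 late. Early and late libraries did not overlap in either genotype. H2-T23 rose by 1.19 on the log2 scale in WT (SE 0.11, limma adjusted p = 8.35e-05) and by 0.86 in Tnfr2-/- (SE 0.11, limma adjusted p = 2.78e-04). In Tnfr2-/- this call was lost when all libraries of mouse 1 (limma adjusted p = 0.0865) or of mouse 2 (0.119) were left out.

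The classical heavy chains rose less. H2-K1 in WT was 427, 530 and 575 at the lowest, median and highest early library, and 748.0, 783.9, 1006.5 and 580.3 late, so the groups did not overlap although the lowest late library was close to the highest early library. It rose by 0.57 in WT (SE 0.12, limma adjusted p = 0.00627). In Tnfr2-/- H2-K1 was 490.0, 539 and 552 early and 730.3, 631.5, 614.6 and 688.7 late, again without overlap. The difference of 0.32 in Tnfr2-/- did not pass the test (SE 0.12, limma adjusted p = 0.0856). It passed without the WT day 7 library of mouse 1 (limma adjusted p = 0.00923) or of mouse 2 (0.00914). The difference stayed at 0.32 in these fits and in those without all libraries of WT mouse 1 or WT mouse 2. Why the adjusted p changed was not tested. The WT call was lost without all libraries of WT mouse 1 (0.35, adjusted p = 0.0746), Tnfr2-/- mouse 1 (0.0619) or Tnfr2-/- mouse 2 (0.0616).

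H2-D1 in WT was 294, 366 and 451 early and 486.8, 572.6, 713.1 and 465.2 late. In Tnfr2-/- it was 324, 366 and 430 early and 535.8, 460.8, 518.9 and 576.5 late. Late libraries stood above early libraries in both genotypes, and H2-D1 rose by 0.61 in WT (SE 0.12, limma adjusted p = 0.00407) and by 0.49 in Tnfr2-/- (SE 0.12, limma adjusted p = 0.0124). The WT call was lost without WT mouse 1 (0.39, adjusted p = 0.0634). The Tnfr2-/- call was lost without the day 5 library of mouse 1 (0.43, adjusted p = 0.0606), the day 7 library of mouse 2 (0.45, 0.0549), all of mouse 1 (0.42, 0.380) or all of mouse 2 (0.56, 0.221), and in a fit on the means of each mouse (adjusted p = 0.0601). With H2-K1, H2-D1, H2-T23 and the other heavy chain genes added up into 1 feature before the fit, the sum rose by 0.66 in WT (SE 0.11, limma adjusted p = 0.00145) and by 0.47 in Tnfr2-/- (SE 0.11, limma adjusted p = 0.0094). H2-K1 and H2-D1 together made up 75.01% to 85.2% of that sum.

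B2m, the light chain, varied more between libraries. In WT it was 424, 712 and 1281 early and 727.9, 1408.4, 1383.4 and 1246.7 late, and the groups overlapped. In Tnfr2-/- it was 506, 752 and 971 early and 1136.6, 1099.5, 1716.5 and 1743.7 late, with no overlap. B2m rose by 0.98 in Tnfr2-/- (SE 0.24, limma adjusted p = 0.0115) and by 0.74 in WT (SE 0.24, limma adjusted p = 0.0438). The WT call was not stable: it was lost in 19 of 24 fits that left out a library or a mouse, with a log2 difference between 0.50 and 0.78 and an adjusted p up to 0.174 in those fits. These were the fits without any 1 of the 10 Tnfr2-/- libraries or either Tnfr2-/- mouse, without WT mouse 1, without its libraries at day 1, 2, 3 or 7, and without the WT mouse 2 libraries at day 5 or 7. The Tnfr2-/- call was lost without mouse 1 (0.76, adjusted p = 0.411) or mouse 2 (1.202, 0.188). The ratio of B2m to the summed heavy chains had a median of 0.646 in early and 0.721 in late WT libraries, and of 0.681 and 0.932 in Tnfr2-/- libraries, with overlapping ranges.

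Tapbp was the only other member called. In WT it was 88.0, 127 and 184 early and 164.5, 296.4, 169.0 and 218.3 late, and in Tnfr2-/- it was 114, 151 and 174 early and 220.1, 167.7, 270.8 and 298.7 late, with overlap in both genotypes. It rose by 0.70 in WT (SE 0.18, limma adjusted p = 0.0168) and by 0.69 in Tnfr2-/- (SE 0.18, limma adjusted p = 0.0171). The WT call was lost without the mouse 2 library at day 5 (0.49, adjusted p = 0.0716) or day 7 (0.61, 0.0566) and without Tnfr2-/- mouse 1 (0.0841) or mouse 2 (0.0838). The Tnfr2-/- call was lost without the day 5 library of mouse 1 (0.59, 0.0822), the day 7 library of mouse 2 (0.66, 0.0642), mouse 1 (0.64, 0.351) or mouse 2 (0.74, 0.251).

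The transporter subunits did not pass the test in either genotype. Tap1 was 9.50 to 27.8 early and 16.97 to 39.1 late in WT, and 10.9 to 20.0 early and 14.6 to 25.0 late in Tnfr2-/-. Its log2 difference was 0.46 in WT (SE 0.24, limma adjusted p = 0.195) and 0.36 in Tnfr2-/- (SE 0.24, limma adjusted p = 0.324), and the WT difference passed the test without the day 5 library of mouse 1 (0.75, adjusted p = 0.0438). Tap2 was 11.4 to 26.3 early and 15.1 to 27.0 late in WT, and 11.9 to 27.0 early and 12.7 to 42.0 late in Tnfr2-/-. Its difference was 0.33 in WT (SE 0.32, limma adjusted p = 0.496) and 0.57 in Tnfr2-/- (SE 0.32, limma adjusted p = 0.237), and the latter passed without the day 5 library of mouse 1 (0.98, adjusted p = 0.0425).

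The immunoproteasome subunits and Nlrc5 overlapped widely between early and late libraries. Psmb8 was 14.5 to 23.5 early and 9.71 to 32.0 late in WT, a difference of 0.0058 (SE 0.38, limma adjusted p = 0.995), and 5.22 to 21.2 early and 11.9 to 19.3 late in Tnfr2-/-, a difference of 0.60 (SE 0.38, limma adjusted p = 0.304). Psmb9 was 3.76 to 17.2 early and 8.19 to 17.4 late in WT, a difference of 0.31 (SE 0.49, limma adjusted p = 0.697), and 1.62 to 6.12 early and 2.67 to 20.97 late in Tnfr2-/-, a difference of 1.17 (SE 0.49, limma adjusted p = 0.112). The Psmb9 difference in Tnfr2-/- passed the test without the day 5 library of mouse 1 (1.81, adjusted p = 0.0181). Nlrc5 was 1.58 to 8.01 early and 1.26 to 8.65 late in WT, a difference of -0.30 (SE 0.37, limma adjusted p = 0.608), and 0.926 to 2.90 early and 0.823 to 5.43 late in Tnfr2-/-, a difference of 0.56 (SE 0.37, limma adjusted p = 0.332). When the fit used principal transcripts alone, an alternative chosen after seeing the data, Psmb8 (1.14, adjusted p = 0.0259) and Psmb9 (1.28, 0.046) were called higher late in Tnfr2-/-, B2m in WT was not called (0.74, 0.052) and Nlrc5 did not pass the filter.

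Whether the change in time differed between genotypes was tested directly, as the late minus early genotype effect. Of the 10 members 0 were called by limma and 0 had an unadjusted p under 0.05, and 0.148% of all genes were called. The difference was -0.32 for H2-T23 (95% interval -0.66 to 0.017, limma adjusted p = 0.451), -0.25 for H2-K1 (-0.63 to 0.12, 0.603) and 0.24 for B2m (-0.49 to 0.97, 0.8288). These intervals leave room for differences between genotypes of the size of some of the time changes themselves.

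Mouse by mouse, the late mean exceeded the early mean in 4 of 4 mice for H2-K1, H2-D1, H2-T23, B2m, Tap1, Tap2 and Tapbp. The ratio of these means was 1.24 to 1.74 for H2-K1, 1.31 to 1.78 for H2-D1, 1.60 to 2.55 for H2-T23 and 1.40 to 2.31 for B2m. Both late libraries lay above all early libraries of the same mouse in 4 of 4 mice for H2-K1, H2-D1 and H2-T23, in 3 for Tapbp, in 2 for B2m and in 0 for Tap1. Psmb8 had a higher late mean in 2 of 4 mice, and Psmb9 and Nlrc5 in 3 of 4. How many of all genes met these per-mouse criteria was not counted, so these counts describe the members alone. The summed fibroblast markers had a median of 3999 early and 2581 late in WT and of 4104 early and 6543 late in Tnfr2-/- libraries. The summed immune markers had medians of 11.7 early and 17.2 late in WT and of 24.2 and 40.0 in Tnfr2-/- libraries. Of 7 epithelial markers 3 were higher and 0 lower late in WT, and 2 were higher and 2 lower in Tnfr2-/-, where 11.6% of all genes were higher and 8.52% lower in WT and 10.4% and 9.93% in Tnfr2-/-. Epcam, an epithelial adhesion molecule, rose by 1.33 in WT (limma adjusted p = 8.35e-05) and by 1.57 in Tnfr2-/- (4.23e-05), the junction cadherin Cdh1 rose by 0.51 and 0.50, and the microvillus protein gene Vil1 rose by 1.09 in WT, while the keratins Krt8 and Krt19 fell by 0.43 and 0.31 in Tnfr2-/-. The summed epithelial markers had medians of 15038 early and 16448 late in WT and of 18618 and 15711 in Tnfr2-/- libraries. The part of these markers in the change of the class I genes was not tested.

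**Figure D4:**
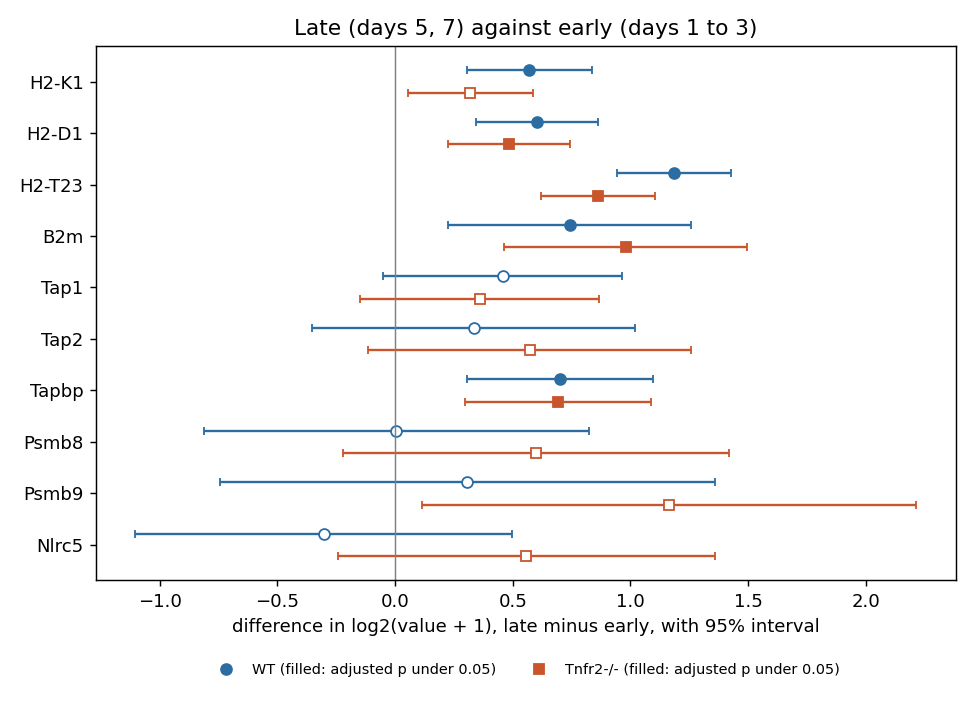
Difference of each member between late (days 5 and 7) and early (days 1 to 3) colonoids in log2(value + 1) (x axis) with its 95% interval, in WT and in Tnfr2-/-. Filled points have a limma adjusted p under 0.05, among them H2-T23 at 1.19 in WT and 0.86 in Tnfr2-/-, and the intervals of the 2 genotypes overlap for each gene.

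The second comparison asked whether loss of TNFR2 changed the class I pathway. No member differed between genotypes by the test across all genes, and the estimates for the classical heavy chains were close to 0. Over all days, with day as a covariate, 0 of 10 members were called by limma and 1 (Psmb9) had an unadjusted p under 0.05, while 7.6% of all genes were called. At late days 0 were called, against 6.45% of all genes, and 0 had an unadjusted p under 0.05. At early days 0 were called, against 1.2% of all genes, and 3 (H2-T23, Psmb9 and Nlrc5) had an unadjusted p under 0.05. That unadjusted threshold was met by 3023 of all 13539 genes over all days, 3094 at late days and 1746 at early days. The median difference over the members was -0.030 over all days, beside -0.029 for all genes. At single days, with 2 libraries against 2, 0 of 10 members were called at each of days 1, 2, 3, 5 and 7, where 0.0739%, 0.096%, 0.155%, 1.65% and 0.82% of all genes were called. Unadjusted p-values under 0.05 occurred at day 3 alone, for Psmb9 (-2.28, limma adjusted p = 0.373) and Nlrc5 (-1.42, limma adjusted p = 0.508).

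The intervals given for the heavy and light chains take libraries of 1 mouse at several days as independent, although each genotype had 2 mice. Over all days the log2 difference of Tnfr2-/- minus WT was -0.052 for H2-K1 (-0.23 to 0.13, limma adjusted p = 0.770), -0.0090 for H2-D1 (-0.17 to 0.15, 0.961) and 0.16 for H2-T23 (-0.014 to 0.33, 0.268). B2m differed by 0.13 with a wider interval (-0.20 to 0.45, 0.676). At early days H2-T23 was 52.9 to 80.0 in WT and 63.9 to 106 in Tnfr2-/- libraries, a difference of 0.29 with an interval above 0 (0.070 to 0.50) that did not pass the adjustment over all genes (limma adjusted p = 0.227). At late days H2-K1 differed by -0.20 (-0.49 to 0.088, limma adjusted p = 0.406), and this was called without the WT day 7 library of mouse 2 (-0.40, adjusted p = 0.0286). H2-T23 over all days was called without the WT day 7 library of mouse 1 (0.22, 0.0289). Without all of WT mouse 2, which leaves a single WT mouse, H2-K1 differed by -0.38 at late days and B2m by 0.45 over all days.

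Among the processing genes the estimates were negative for 3 of 5 and the intervals were wide. Tap1 differed by -0.32 over all days (-0.64 to 0.0040, limma adjusted p = 0.231), Tap2 by 0.25 (-0.18 to 0.69, 0.504), Tapbp by 0.19 (-0.099 to 0.47, 0.447), Psmb8 by -0.49 (-1.01 to 0.039, 0.264) and Psmb9 by -1.10 (-1.80 to -0.40, 0.0509). The transactivator Nlrc5 differed by -0.52 (-1.09 to 0.041, 0.262). Nlrc5 was called without the WT day 5 library of mouse 1 (-0.74, limma adjusted p = 0.0377). Tap1 differed by -0.57 without WT mouse 1 and Tapbp by 0.42 without WT mouse 2, in fits where WT was a single mouse.

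Psmb9, the subunit with the largest difference, was 3.76 at the lowest, 9.48 at the median and 17.2 at the highest early WT library, and 1.62, 2.06 and 6.12 in early Tnfr2-/- libraries, with overlap through 1 WT library. At late days it was 8.19, 17.4, 8.51 and 13.7 in WT and 2.67, 20.97, 3.67 and 11.3 in Tnfr2-/- libraries, where both libraries of mouse 1 lay below all WT libraries and the day 5 library of mouse 2 above them. Its adjusted p over all days was 0.0348 with the replicate number as a fixed block, 0.105 with mouse as a correlated block, and 0.394 on the means of each mouse. It was called in 8 fits that left out 1 library or 1 mouse, with values between -1.54 and -1.18: without the WT libraries of mouse 1 at day 5 or 7 or of mouse 2 at day 2, without the Tnfr2-/- libraries of mouse 1 at day 2 or of mouse 2 at day 1, 5 or 7, and without Tnfr2-/- mouse 2. The last of these fits left a single Tnfr2-/- mouse. With principal transcripts alone, chosen after seeing the data, the difference over all days was -0.56 (limma adjusted p = 0.299).

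**Figure D5:**
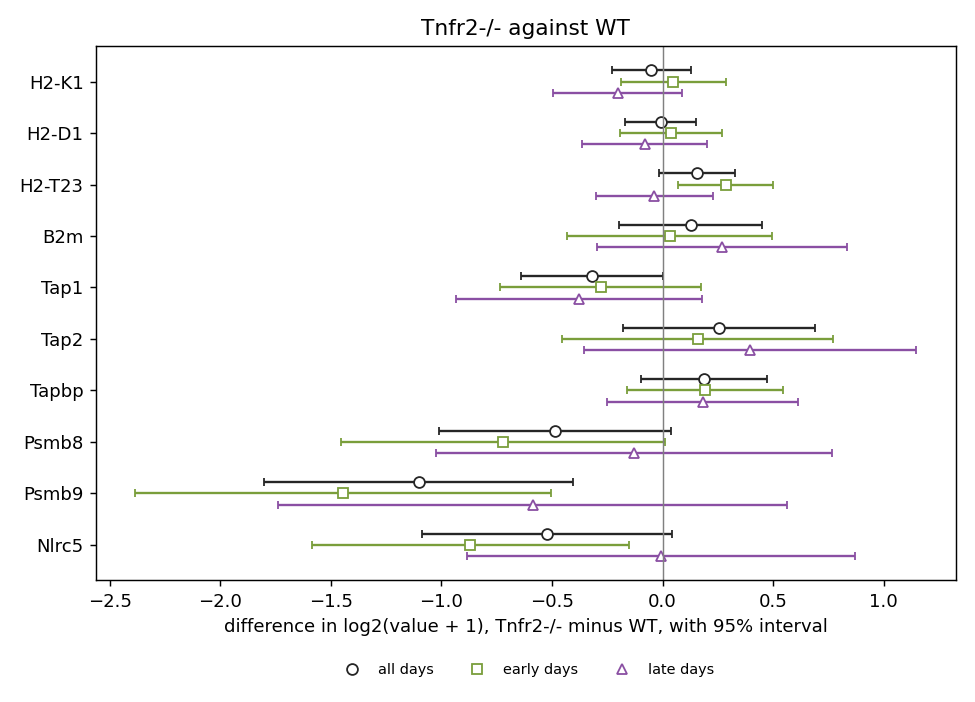
Difference of each member between Tnfr2-/- and WT colonoids in log2(value + 1) (x axis) with its 95% interval, over all days (circles), early days (squares) and late days (triangles). No point has an adjusted p under 0.05, and Psmb9 lies farthest from 0 at -1.10 over all days and -1.45 at early days.

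Immunoproteasome subunits were less abundant than the standard subunits that they replace in the assembled particle. Psmb8 had a median of 8.06% of the Psmb5 level in early and 10.31% in late WT libraries, and of 4.51% and 10.4% in Tnfr2-/- libraries. Psmb9 had a median of 4.64% and 6.63% of the Psmb6 level in WT and of 1.02% and 3.75% in Tnfr2-/- libraries. Psmb10, the third inducible subunit, had a median of 15.5% early and 28.0% late of the Psmb7 level in WT and of 14.1% and 25.5% in Tnfr2-/- libraries, and early and late ranges did not overlap. Psmb10 rose late by 0.73 in WT (limma adjusted p = 0.0174) and by 0.60 in Tnfr2-/- (0.0429), and Psme1, an activator that caps the proteasome, rose by 0.48 (0.0278) and 0.45 (0.0355). Of the list of Psmb10, Psme1 and Psme2, 2 of 3 were called higher late in each genotype, where 11.6% and 10.4% of all genes were higher. Between genotypes 0 were called over all days, at late or at early days, where 7.6%, 6.45% and 1.2% of all genes were called. In Tnfr2-/- the calls of Psmb10 and Psme1 were lost with no filter (adjusted p = 0.0737 and 0.0608), with rescaled libraries (0.0652 and 0.0733) and with no variance trend (0.054 and 0.057), that of Psme1 with quantile normalisation (0.0616), and both in 15 and 11 of 24 fits that each left out 1 library or 1 mouse. In WT they were lost in 4 and 7 of these 24 fits, and Psme1 was lost with rescaled libraries (0.0511). With principal transcripts alone Psme1 was not called and its sign was negative (-0.17 in WT and -1.39 in Tnfr2-/-), and Psmb10 was not called in WT (0.68, adjusted p = 0.0544) or in Tnfr2-/- (0.26, 0.484). Of the 3 standard catalytic subunits, Psmb7 fell late by 0.39 in WT (limma adjusted p = 0.00315), and Psmb7 and Psmb5 fell by 0.30 (0.0119) and by 0.29 (0.0463) in Tnfr2-/-. Of all genes 8.52% were lower late in WT and 9.93% in Tnfr2-/-. On the means of each mouse, none of these calls of Psmb10, Psme1, Psmb7 and Psmb5 was made (adjusted p from 0.0596 to 0.159), and Psmb5 missed the threshold with principal transcripts alone (0.0514), with no filter (0.0564), with no variance trend (0.0825) and in 14 of the 24 leave-out fits. Psmb7 was lost in 1 of these fits in WT and in 4 in Tnfr2-/-.

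Among the other class I heavy chains, 14 of 21 listed genes passed the filter and 2, H2-T9 and H2-L, were not found in the table used here. Late against early, 7 were higher and 0 lower in WT and 4 were higher and 0 lower in Tnfr2-/-, where 11.6% and 10.4% of all genes were higher. In WT the largest changes were those of H2-Q2 (1.99, limma adjusted p = 0.0047), H2-Q1 (1.94, 0.00608) and H2-Q10 (1.65, 0.0236, and 0.0587 on the means of each mouse), genes of the Q region that encode nonclassical molecules. The H2-Q1 mean was 0.29 in early and 5.18 in late WT libraries, and 0.27 and 0.69 in Tnfr2-/- libraries. Only its late WT mean was above the filter value of 1, so the filter kept H2-Q1 through the libraries in which it was then called higher. In Tnfr2-/- they were those of H2-Q7 (1.93, 0.00155), H2-Q10 (1.78, 0.0152) and H2-Q6 (1.48, 0.00794). With principal transcripts alone H2-Q7 differed late against early by 0.18 in Tnfr2-/- (0.868), and H2-Q10 missed the threshold in Tnfr2-/- (0.0558) and in WT (0.096). In the 24 fits that each left out 1 library or 1 mouse, the WT change ranged from 1.25 to 2.73 for H2-Q2, from 1.19 to 2.69 for H2-Q1 and from 0.74 to 2.56 for H2-Q10, and the calls were lost in 3, 3 and 7 fits. In Tnfr2-/- those of H2-Q7, H2-Q10 and H2-Q6 were lost in 2, 4 and 2 fits. Of these genes 3 were called lower in Tnfr2-/- over all days, H2-Q6 (-1.31, 0.0011), H2-Q7 (-1.26, 0.00807) and H2-Q4 (-0.62, 0.00134), where 3.09% of all genes were lower. In the same comparison 3 of 10 fibroblast markers, Dcn (1.65, limma adjusted p = 0.00101), Vim (1.04, 0.0121) and Thy1 (1.37, 0.0156), 2 of 7 epithelial markers (Epcam at 0.36 and Cdh1 at 0.25) and the 2 immune markers that passed the filter (Cd68 at 1.13 and Csf1r at 0.76) were called higher in Tnfr2-/-, and none of these markers was called lower. Of all 13539 genes, 611 were called higher in this comparison. The part of these markers in the H2-Q differences was not tested. WT and Tnfr2-/- mice were of separate strains, named at the start. A strain difference in H2 sequence therefore cannot be told apart from loss of TNFR2. These H2-Q calls were lost without Tnfr2-/- mouse 1 for H2-Q6 (adjusted p = 0.0788) and H2-Q7 (0.102), without WT mouse 2 for H2-Q7 (0.0528) and without Tnfr2-/- mouse 2 for H2-Q4 (0.0547). At early days H2-Q7 was 12.2 to 29.8 in WT and 1.55 to 8.34 in Tnfr2-/- libraries, H2-Q6 was 2.88 to 19.8 and 1.31 to 4.92, and H2-Q4 was 36.3 to 61.7 and 20.8 to 41.7. H2-Q7 did not overlap between genotypes at these days, and the other two did. The early differences were called at -1.67 for H2-Q7, -1.47 for H2-Q6 and -0.66 for H2-Q4 (limma adjusted p = 0.014, 0.0314 and 0.0321), where 0.428% of all genes were lower. At these days Dcn (0.93) and Cd68 (0.99) were called higher in Tnfr2-/-, where 104 of all 13539 genes were called higher. The H2-Q calls were lost in 6, 11 and 16 of the 24 leave-out fits, and H2-Q6 was lost with a pseudocount of 5 (0.0627) and with no filter (0.0587). On the means of each mouse none of the 3 was called over all days (adjusted p = 0.277, 0.277 and 0.334) or at early days (0.328, 0.328 and 0.396 for H2-Q6, H2-Q7 and H2-Q4), and H2-Q6 at early days missed the threshold with mouse as a correlated block (0.0553). With principal transcripts alone, H2-Q7 differed by -0.075 over all days (0.954) and by 0.74 at early days (0.633), and H2-Q4 was not called at early days (0.0623). Of the main transcripts, 17.9% of the 75-base stretches of H2-Q6, 9.53% of H2-Q7 and 7.91% of H2-Q4 also occur in another gene, and 50.3%, 34.5% and 43.45% of the 31-base stretches.

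Of 10 genes of peptide loading and trimming, 1 was higher and 3 lower late in WT, and 1 was higher and 1 lower in Tnfr2-/-. Of all genes 11.6% were higher and 8.52% lower late in WT, and 10.4% and 9.93% in Tnfr2-/-. Lnpep, an aminopeptidase that trims peptides in endosomes, rose by 0.48 in WT (limma adjusted p = 0.0419) and by 0.60 in Tnfr2-/- (0.0148). Calr, the calreticulin chaperone of the loading complex, fell by 0.33 in WT (0.0418) and by 0.38 in Tnfr2-/- (0.0225). In WT the chaperone Hspa5 fell by 0.52 (0.0104) and the disulfide isomerase Pdia3 fell by 0.34 (0.0412). On the means of each mouse the calls of Lnpep, Calr and Pdia3 were not made (adjusted p from 0.0525 to 0.0888). In WT these 3 calls were lost with no filter (0.0587 for Lnpep, 0.0727 for Calr and 0.0646 for Pdia3), with quantile normalisation for Lnpep (0.0766) and Calr (0.0665), with rescaled libraries for Lnpep (0.0855), with no variance trend for Calr (0.0754) and Pdia3 (0.0734), and in 19, 20 and 19 of the 24 leave-out fits, and that of Hspa5 in 4. In Tnfr2-/- those of Lnpep and Calr were lost in 4 and 6 fits. None of the 10 was called between genotypes over all days, at late days or at early days. Of all genes 7.6%, 6.45% and 1.2% were called in these comparisons.

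Genes of class I transcription and interferon signalling were tested for 17 of 21 listed. In each genotype 8 of these were higher late and 0 lower, where 11.6% of all genes in WT and 10.4% in Tnfr2-/- were higher. Stat2, which carries interferon signals to the nucleus, rose by 1.01 in WT (limma adjusted p = 0.00384) and by 0.92 in Tnfr2-/- (0.00579), the interferon gamma receptor chain Ifngr2 rose by 1.13 in WT (0.00152), and the kinase Jak2 rose by 1.09 in Tnfr2-/- (2.24e-04). The calls of Stat2 were lost without WT mouse 1 in WT (adjusted p = 0.162) and, like that of Jak2, without either mouse of Tnfr2-/- in that genotype (up to 0.217 for Stat2 and 0.106 for Jak2). Of the 17 genes 1, Jak2, was called between genotypes, where 7.6% of all genes were called over all days and 6.45% at late days. It differed by 0.34 over all days (0.0457) and 0.61 at late days (0.0292), and was not called on the means of each mouse (0.404 and 0.312) nor, over all days, with mouse as a correlated block (0.102), no filter (0.0641) or rescaled libraries (0.0904). The 2 Jak2 calls between genotypes were lost in 17 and 10 of the 24 leave-out fits. The genes for interferon gamma (Ifng) and interferon lambda (Ifnl2 and Ifnl3) were listed at 0 in all 20 libraries. The interferon beta gene (Ifnb1) reached 0.833 in late WT libraries and was at 0 in early WT and in all Tnfr2-/- libraries. Interferon alpha genes were not on the list. Of 20 interferon-stimulated reference genes 14 were higher late in each genotype, with medians of 1.103 and 1.32, against 11.6% of all genes in WT and 10.4% in Tnfr2-/-. The largest changes were those of Ifi44 (2.79), Ifit1 (2.15) and Irf7 (2.12) in WT and of Ifi44 (2.58), Rtp4 (2.09) and Ifit1 (2.02) in Tnfr2-/-. The 3 calls in Tnfr2-/- were lost without either mouse of that genotype (adjusted p up to 0.181 for Ifi44, 0.141 for Rtp4 and 0.208 for Ifit1). Irf7 in WT missed the threshold with principal transcripts alone (limma adjusted p = 0.0549). Between genotypes over all days, 1 of these 20 genes was called higher and 1 lower, where 7.6% of all genes were called. The lower gene, Iigp1, had a mean of 4.38 in WT and 0.90 in Tnfr2-/- libraries, and only the WT mean was above the filter value of 1. Bst2 was higher (0.53, limma adjusted p = 0.0413) and Iigp1 lower (-1.30, 0.00785) in Tnfr2-/-. On the means of each mouse neither was called (0.230 and 0.397), and Bst2 was also not called with mouse as a correlated block (0.0944), no filter (0.0743), rescaled libraries (0.0606), quantile normalisation (0.0552), no variance trend (0.054) or in 18 of the 24 leave-out fits. Iigp1 was not called in 3 of these fits, those without WT mouse 2, Tnfr2-/- mouse 1 or Tnfr2-/- mouse 2 (adjusted p up to 0.156), and its difference ranged from -1.79 to -0.81.

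Of 9 MHC class II genes 3 passed the filter, and H2-Aa, H2-Oa and H2-Ob were listed at 0 in all libraries. H2-Ab1, a class II beta chain, was 1.89 to 4.71 in late WT and 5.98 to 23.6 in late Tnfr2-/- libraries, with no overlap. It was called higher in Tnfr2-/- at late days (1.66, limma adjusted p = 0.0276) and over all days (1.09, 0.0157), and in neither comparison on the means of each mouse (0.256 and 0.394). H2-Ab1 was the 1 gene called of the 3 tested, where 6.45% of all genes were called at late days and 7.6% over all days. It was also higher late than early within Tnfr2-/- (1.36, 0.0188), where 10.4% of all genes were higher. With a pseudocount of 0.1 all 3 calls were lost (adjusted p = 0.164 at late days, 0.054 over all days and 0.1499 within Tnfr2-/-). The call at late days was also lost with no filter (0.0529) and with principal transcripts alone (1.22, 0.102). The calls at late days, over all days and within Tnfr2-/- were lost in 8, 3 and 6 of the 24 leave-out fits. At late days the summed immune markers were 10.2 to 21.03 in WT and 26.5 to 48.4 in Tnfr2-/- libraries, and the summed fibroblast markers 1242 to 4051 and 3728 to 8594. Of the markers tested, Cd68 (1.35), Dcn (2.74, limma adjusted p = 2.16e-05) and Vim (1.69, 0.0122) were called higher in Tnfr2-/- at these days. So were 515 of all 13539 genes. The immune markers Ptprc and Itgam did not pass the filter, with means over all days of 0.227 and 0.314 in WT and 0.137 and 0.0863 in Tnfr2-/- libraries. The part of these markers in the H2-Ab1 difference was not tested.

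Pearson correlations of log2 values across the 20 libraries, which share mice, days and scaling, were positive among the heavy and light chains. They were 0.868 between H2-K1 and H2-D1, 0.855 between H2-K1 and H2-T23 and 0.761 between H2-D1 and H2-T23. B2m correlated at 0.876 with H2-D1, 0.600 with H2-T23 and 0.577 with H2-K1. The correlation of Psmb8 with Psmb9 was 0.514, that of Psmb9 with Nlrc5 was 0.512, and the lowest of all pairs was -0.189 between Tap2 and Nlrc5. Among 13529 other genes, the 5 whose values were most like the mean standardised member profile were Cpm (r = 0.911), Eif2ak2 (0.877), Tes (0.866), Lgals9 (0.863) and Clcn4 (0.863). Cpm, a carboxypeptidase, ran from 2.47 to 30.2 and Eif2ak2, the interferon-inducible kinase PKR, from 18.4 to 58.6 over the libraries.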

How the data were processed

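RNA-seq of colonoids gave 20 libraries, 2 mice per genotype at each of 5 days. Transcripts were quantified by the authors with kallisto and sleuth, and the submitters' processing notes also name CASAVA and mm10. The deposited values are a signal that appears to be TPM divided by a size factor per library (the factors are not given in the sources used here), and the deposited table also holds, per transcript, the authors' mean of the natural log of the estimated count and the columns of the authors' own tests, which were not used. TPM keeps no depth and the study's methods state only an approximate read number common to all samples, so no counting interval is given.

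Of 113974 lines, 781 repeated transcripts were dropped, and 113193 transcripts were summed per gene symbol, leaving out 199 without a symbol. Values were tested as log2(value + 1) for 13539 genes with a mean of at least 1, in limma 3.58.1 (R 4.3.3) with a mean-variance trend. Genotype over all days was fitted with day as a factor. The other comparisons were contrasts of the 10 group means. Libraries of 1 mouse were taken as independent, with mouse blocks and mouse means as alternatives. A fit without 1 mouse leaves that genotype with 1 mouse and 1 library at each day. In the contrasts of group means, the residual spread then comes from the other genotype alone. P-values are two-sided, Benjamini-Hochberg adjusted over all genes tested, with a threshold of 0.05. The fits were tested on simulated data. Within a genotype a replicate number names a mouse, and the deviations of its libraries from their group means correlated between days at 0.0997 to 0.307 in WT (10 pairs) and at -0.0511 to 0.080 in Tnfr2-/- (10 pairs). Across genotypes the numbers are only shared, with correlations of -0.0536 to 0.0761 (5 pairs).

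All 10 members are named, with at most 3 called genes of largest change per direction from each pathway list, and the 5 genes most correlated with the members. One gene that the rule would name is not reported here. Cell type markers named outside this rule were chosen after their values were seen. The members and lists were chosen with earlier results of these data known. Alternatives changed the pseudocount, filter, scaling, variance trend, gene identifiers, replicate block and libraries. The fit on transcripts marked as principal (11201 genes) was added after seeing the data. Coordinates come from GENCODE M21 on GRCm38, whose build the notes name as mm10. Python 3.11.15 was used for tables and sequences.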

Additional observations from a re-analysis of the deposited data

How the results depend on the processing

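With 2 mice per genotype and no read number per library, small genotype differences of the low members (Psmb8, Psmb9, Nlrc5, Tap1 and Tap2) could not be resolved. The calls of H2-T23 in both genotypes, and of H2-K1 and H2-D1 in WT, held under each alternative scaling, filter, pseudocount, trend and block, and H2-D1 in Tnfr2-/- was lost on the means of each mouse (0.49, adjusted p = 0.0601). H2-K1 and H2-D1 were not retested singly where the heavy chains were summed. B2m in WT was lost with no filter (adjusted p = 0.0841), rescaled libraries (0.0681), quantile normalisation (0.0571), no variance trend (0.0616) and principal transcripts (0.052). The cause was not tested.

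The number of members called between genotypes over all days changed from 0 to 1, Psmb9, with a pseudocount of 0.1 (-1.32, adjusted p = 0.0478), with libraries rescaled to a common sum (-1.16, 0.0384) and with the replicate number as a fixed block (-1.10, 0.0348). It was 0 to 2 when a library or mouse was left out, 0 to 1 at late days and at single days, and 0 at early days and for the late minus early genotype effect. Late against early, it was 2 to 6 in WT and 0 to 5 in Tnfr2-/- in these leave-out fits, and 4 to 5 in WT and 3 to 6 in Tnfr2-/- under the other alternatives. Over all genes, the fixed block called 280 genes at early days (162 without it) and 96 for the late minus early effect (20 without it). The mouse as a correlated block called 545 over all days (1029 without it) and 47 for the late minus early effect. On the means of each mouse 7, 0, 3 and 1 genes were called over all days, at late days, at early days and for the late minus early effect (1522, 1859, 1113 and 1622 at an unadjusted p under 0.05), with 1727 in WT and 1796 in Tnfr2-/- late against early (2724 and 2755 in the main analysis).

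Signs turned for differences that were not called and, with principal transcripts, for the called differences of H2-Q7 and Psme1. At early days the genotype difference was -0.021 for H2-K1, -0.031 for H2-D1 and -0.038 for B2m with rescaled libraries, and -0.063, -0.048 and -0.094 with quantile normalisation. Rescaling and quantile normalisation moved the median of all genes by -0.076 to 0.019. Psmb8 late against early in WT was -0.068 with rescaled libraries, -0.050 with quantile normalisation and -0.0016 with a pseudocount of 0.1. The summed heavy chains, in place of H2-T23, differed between genotypes by -0.065 over all days. With principal transcripts, Tap2 differed between genotypes by -0.00027 over all days and -0.84 at late days, Psmb8 by 0.25 and Psmb9 by 0.23 at late days, and H2-Q7 by 0.74 at early days. The late minus early effect was then 0.28 for Tap1, -1.40 for Tap2 and 0.094 for Tapbp. Late against early was -0.035 for Psmb9 and -0.17 for Psme1 in WT, and -0.81 for Tap2 and -1.39 for Psme1 in Tnfr2-/-.

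Leaving out libraries or mice also turned signs of differences that were not called. Over all days the genotype difference ranged from -0.10 to 0.018 for H2-K1, -0.048 to 0.040 for H2-D1, -0.20 to 0.45 for B2m and -0.042 to 0.42 for Tapbp. At late days it ranged from -0.23 to 0.073 for H2-D1, -0.19 to 0.11 for H2-T23, -0.039 to 0.83 for Tap2, -0.12 to 0.48 for Tapbp, -0.78 to 0.52 for Psmb8, -1.58 to 0.41 for Psmb9 and -0.70 to 0.69 for Nlrc5. At early days it ranged from -0.077 to 0.15 for H2-D1, -0.38 to 0.44 for B2m, -0.56 to 0.0053 for Tap1 and -0.17 to 0.49 for Tap2. The late minus early effect ranged from -0.33 to 0.092 for H2-D1, -0.39 to 0.19 for Tap1, -0.17 to 0.65 for Tap2, -0.22 to 0.20 for Tapbp, -0.069 to 1.26 for Psmb8 and -0.063 to 1.78 for Psmb9. Late against early ranged in WT from -0.45 to 0.46 for Psmb8, -0.17 to 0.78 for Psmb9 and -1.15 to 0.54 for Nlrc5, and in Tnfr2-/- from -0.063 to 1.26 for Psmb8.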
